A study of Mus musculus with 10 samples.

Results

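The lysosome is the acidic compartment in which cells break down material taken up from outside or delivered by autophagy. Its limiting membrane is lined by heavily glycosylated proteins of the LAMP family, and its lumen holds hydrolases that cut proteins, sugars and lipids, most of them delivered through the mannose 6-phosphate receptors. In brain, microglia are the professional phagocytes and are rich in lysosomes, neurons and glia all carry them, and loss of several of these genes causes lysosomal storage disease. The transcripts of 9 such genes were examined in the hippocampus of female tauopathy mice with or without supplementation with DHT (dihydrotestosterone, an androgen that cannot be converted to estrogen). They were chosen by their gene symbols as lysosomal membrane proteins and hydrolases, with earlier results of these data known. All 9 were found among the 56884 rows of the count table and all 9 passed the expression filter that left 17622 genes for testing. By role they are Cd68, Lamp1 and Lamp2 (membrane proteins), Grn, Npc2 and Lipa (a soluble lysosomal factor, a cholesterol carrier and a lipase), and Hexa, Gusb and Glb1 (glycosidases).

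Bulk RNA-seq was performed on hippocampi of 10 ovary-intact female P301S mice of the PS19 line, 1 library per mouse. The mice carried human Tau with the P301S mutation under the mouse prion promoter. A void (empty) SILASTIC implant was given to 5 females and an implant packed with 10 mm of DHT to the other 5, in both cases at 6 months of age for 12 weeks, and tissue was taken at 9 to 9.5 months. All 10 mice were transgenic and no mouse without the Tau transgene was analysed here, so the values compare DHT with void within tauopathy. Total counts ranged from 27188854 to 47113661 in void-treated and from 33523527 to 45947784 in DHT-treated females. The library numbers in the labels were 4 to 11 for void and 18 to 23 for DHT, so anything that follows this numbering and the treatment cannot be told apart.

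The promoters of all 9 genes were in RefSeq, as windows from 250 bases before to 50 bases after the annotated start on GRCm38.p6. They were searched for CACGTG, the E-box core of the CLEAR element that the lysosomal regulator TFEB binds, which reads the same on both strands, and for GAGGAA on both strands, the core of the sites of PU.1, a transcription factor of macrophages and microglia. The windows shown are those of the most changed genes of the 9, Cd68 and Grn, and of both genes with an E-box, with each match in capitals and on the gene's own strand: Cd68 (chr11:69666121-69666420, minus strand), Grn (chr11:102430257-102430556, plus strand), Lamp1 (chr8:13158911-13159210, plus strand) and Glb1 (chr9:114400828-114401127, plus strand).
Cd68: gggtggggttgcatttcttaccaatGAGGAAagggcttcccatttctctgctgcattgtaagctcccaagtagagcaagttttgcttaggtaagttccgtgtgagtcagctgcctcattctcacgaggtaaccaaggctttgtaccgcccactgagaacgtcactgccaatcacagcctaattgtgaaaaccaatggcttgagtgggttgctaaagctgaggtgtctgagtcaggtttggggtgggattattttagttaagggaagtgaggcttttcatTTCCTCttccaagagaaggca
Grn: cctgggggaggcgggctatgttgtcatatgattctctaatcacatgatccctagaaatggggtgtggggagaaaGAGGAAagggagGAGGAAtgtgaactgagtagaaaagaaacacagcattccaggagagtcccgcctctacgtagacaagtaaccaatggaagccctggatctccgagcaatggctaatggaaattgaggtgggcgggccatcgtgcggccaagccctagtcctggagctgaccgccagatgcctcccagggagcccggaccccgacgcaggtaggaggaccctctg
Lamp1: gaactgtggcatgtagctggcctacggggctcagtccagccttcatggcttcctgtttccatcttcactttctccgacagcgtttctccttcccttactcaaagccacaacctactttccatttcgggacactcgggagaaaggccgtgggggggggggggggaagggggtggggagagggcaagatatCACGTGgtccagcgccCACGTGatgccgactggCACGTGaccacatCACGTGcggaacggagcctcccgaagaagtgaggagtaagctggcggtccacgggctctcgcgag
Glb1: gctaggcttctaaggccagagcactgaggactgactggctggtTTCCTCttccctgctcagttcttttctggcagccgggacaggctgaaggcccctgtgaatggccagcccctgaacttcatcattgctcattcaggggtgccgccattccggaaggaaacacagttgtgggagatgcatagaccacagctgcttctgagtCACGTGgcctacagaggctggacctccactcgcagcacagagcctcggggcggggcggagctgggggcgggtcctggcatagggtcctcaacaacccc
The Lamp1 window held CACGTG 4 times, at positions -61, -45, -28 and -15 from the start, and the Glb1 window held it 1 time, at -48. Of 32851 mouse windows of this length, 7.15% held the E-box at least 1 time and 8 windows (0.0244%) held it 4 times or more. Among 117 windows of the other lysosomal genes examined here, 22.2% held it. GAGGAA was found in 6 of the 9 windows, 2 times each in Cd68 (at -225 and, on the opposite strand, at 30), Grn (at -176 and -164) and Lipa and 1 time each in Lamp2, Gusb and Glb1. It was found in 28.3% of all windows, in 23.9% of the 117 lysosomal windows, and 4.82% of all windows held it 2 times or more. AGGTCA, a half-site that many nuclear receptors bind, was found in 0 of the 9 windows, in 16.3% of all windows and in 17.9% of the 117.

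The 9 transcripts covered a wide range of levels. Per kilobase of exon, Lamp1, an abundant glycoprotein of the lysosomal membrane, was highest in void-treated females, with 108 ± 5.18 CPM per kb (counts scaled to a common library size and to exon length; SD, n = 5). Exon length joined all annotated exons of a gene over its isoforms, such as 1257 bases for Cd68, 5438 for Npc2 and 9552 for Lamp2. It can exceed the length of the transcript present, and the order of the genes depends on it. Lamp1 was followed by Hexa at 22.7 ± 1.49, Grn at 14.6 ± 1.18 and Lamp2 at 11.8 ± 0.805. Npc2 (8.71 ± 1.38), Glb1 (7.68 ± 0.727) and Cd68 (7.14 ± 1.20) overlapped one another, and Lipa (4.21 ± 0.476) and Gusb (3.001 ± 0.322) were lowest. Lamp1 stood at the 98.7th percentile of the tested genes on this scale and Gusb at the 44.7th. In DHT-treated females Cd68 moved from rank 7 to rank 4 of the 9 genes, at 18.03 ± 4.47 CPM per kb, and then overlapped Grn (23.9 ± 3.55), Lamp2 (17.99 ± 3.12) and Npc2 (14.1 ± 2.09). Lipa (5.11 ± 0.476) and Gusb (4.46 ± 0.557) overlapped each other with DHT but not with void.

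**Figure D1:**
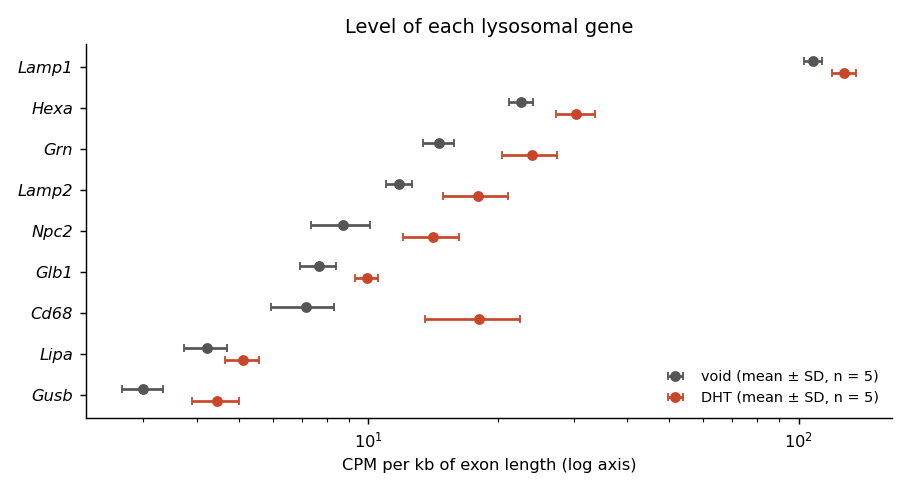
Level of the 9 lysosomal genes in void-treated (grey) and DHT-treated (red) females, in CPM per kb of exon on a log axis; points are means and bars the SD over 5 mice. Lamp1 stands far above the others in both groups, at 108 and 128 CPM per kb. On this scale, set by all annotated exons of a gene, Cd68 passes Glb1 and Npc2 with DHT.

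With DHT, 8 of the 9 transcripts were higher by edgeR's quasi-likelihood test at a Benjamini-Hochberg adjusted p under 0.05, against 5.22% of all genes tested. All 9 had a log2 fold change above 0 and none was called lower, a call made for 0.261% of genes. The median log2 fold change was 0.57 over the 9 genes and 0.01 over all genes tested. In 8 of the 9, every DHT-treated female lay above every void-treated female, as was the case for 5.39% of genes, and Lipa was the exception. Only Cd68 was called with a log2 fold change above 1, as were 2.17% of genes. When the library of void replicate 11 was left out, 5 of the 9 genes were called. In that fit 351 of 17858 genes were called higher in all, in place of 920 of 17622.

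Among the membrane proteins, Cd68, the macrophage sialomucin commonly used as a marker of phagocytic microglia, changed most. It was at 10.7, 7.94, 6.98, 9.87 and 9.40 CPM in the 5 void-treated females and at 29.6, 15.03, 20.2, 26.4 and 22.2 CPM in the 5 DHT-treated females. The lowest DHT-treated mouse was thus above the highest void-treated mouse, and the DHT group was also more spread. The mean rose from 8.98 ± 1.503 to 22.7 ± 5.62 CPM (SD, n = 5), a 2.53-fold difference, with a log2 fold change of 1.34 (SE 0.18, 95% interval 0.96 to 1.72, edgeR adjusted p = 0.00670). Lamp2, which with its isoforms serves chaperone-mediated autophagy and fusion with autophagosomes, was at 104, 105, 118, 120 and 117 CPM with void and at 211, 168, 192, 151 and 138 CPM with DHT. It rose 1.52-fold, with a log2 fold change of 0.61 (SE 0.11, 95% interval 0.38 to 0.84, edgeR adjusted p = 0.00990). Lamp1 was at 289, 280, 276, 312 and 290 CPM with void and at 374, 317, 343, 345 and 329 CPM with DHT. Its groups stood apart by a narrow gap, the highest void-treated mouse at 312 and the lowest DHT-treated mouse at 317, and it rose 1.18-fold (log2 fold change 0.24, SE 0.057, 95% interval 0.11 to 0.36, edgeR adjusted p = 0.0318). The Lamp1 call was lost in 7 of the 10 edgeR fits that each left out 1 mouse (void replicates 4, 9, 10 and 11 and DHT replicates 1, 3 and 5, adjusted p up to 0.162), and with DESeq2's size factors (0.21, edgeR adjusted p = 0.0608).

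Among the soluble proteins, Grn encodes progranulin, a secreted and lysosomal protein whose loss causes frontotemporal dementia or, when complete, a lipofuscinosis. It was at 54.7, 50.4, 44.0, 51.4 and 53.0 CPM with void and at 90.4, 61.6, 85.0, 87.5 and 91.4 CPM with DHT. DHT replicate 2 lay well below the other DHT-treated mice, and above all void-treated mice. Grn rose 1.64-fold, from 50.7 ± 4.09 to 83.2 ± 12.3 CPM (SD, n = 5), with a log2 fold change of 0.71 (SE 0.10, 95% interval 0.49 to 0.94, edgeR adjusted p = 0.00671). Npc2, the carrier that hands cholesterol to Npc1 in the lysosome, was at 47.7, 37.2, 46.3, 47.4 and 58.3 CPM with void and at 94.1, 62.5, 78.3, 74.8 and 74.2 CPM with DHT. It rose 1.62-fold, with a log2 fold change of 0.70 (SE 0.12, 95% interval 0.43 to 0.96, edgeR adjusted p = 0.00990), the highest void-treated and the lowest DHT-treated mouse standing at 58.3 and 62.5 CPM. Lipa, lysosomal acid lipase, which hydrolyses cholesteryl esters and triglycerides, was at 27.5, 23.6, 30.4, 29.0 and 32.1 CPM with void and at 38.3, 34.3, 37.5, 30.9 and 32.1 CPM with DHT. The groups overlapped, with 3 of 5 DHT-treated mice above the highest void-treated mouse, and the Lipa log2 fold change of 0.28 (SE 0.091, 95% interval 0.08 to 0.48) did not pass (edgeR adjusted p = 0.107).

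All 3 glycosidases rose. Hexa, the alpha subunit of the hexosaminidase that degrades GM2 ganglioside, was at 48.3, 41.9, 43.0, 44.7 and 48.4 CPM with void and at 70.5, 53.1, 61.5, 60.0 and 58.4 CPM with DHT, a 1.34-fold difference with a log2 fold change of 0.42 (SE 0.077, 95% interval 0.26 to 0.59, edgeR adjusted p = 0.0109). Gusb, beta-glucuronidase, was at 13.9, 12.0, 12.5, 14.0 and 15.8 CPM with void and at 23.03, 16.5, 19.9, 22.1 and 19.9 CPM with DHT, a 1.49-fold difference with a log2 fold change of 0.57 (SE 0.10, 95% interval 0.35 to 0.80, edgeR adjusted p = 0.0106). Glb1, beta-galactosidase, which acts on GM1 ganglioside and on keratan sulfate, was at 21.6, 21.03, 21.97, 24.8 and 26.0 CPM with void and at 31.995, 27.5, 29.4, 28.8 and 31.2 CPM with DHT, a 1.29-fold difference with a log2 fold change of 0.37 (SE 0.076, 95% interval 0.20 to 0.53, edgeR adjusted p = 0.0170). In each of the 3 genes the groups stood apart, DHT replicate 1 was the highest mouse and DHT replicate 2 the lowest of the DHT group. Glb1 lost its call in 4 of the 10 fits without 1 mouse (void replicates 4, 10 and 11 and DHT replicate 1, edgeR adjusted p up to 0.0706), and Hexa lost it without void replicate 11 (edgeR adjusted p = 0.0503). A two-sided exact permutation test over mice gave p = 0.00794, the smallest that 5 mice against 5 allow, for every gene but Lipa (exact p = 0.0238). Some exonic sequence is shared with a neighbour: 249 bases of Lamp1 with Grtp1, 68 bases of Grn with Fam171a2 and 255 bases of Hexa with Tmem202, on opposite strands, and 165 bases of Glb1 with Tmppe on the same strand. The mean CPM of these neighbours was 2.97 with void and 3.37 with DHT for Grtp1, 47.8 and 49.0 for Fam171a2, 1.22 and 1.34 for Tmem202, and 8.13 and 7.98 for Tmppe.

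**Figure D2:**
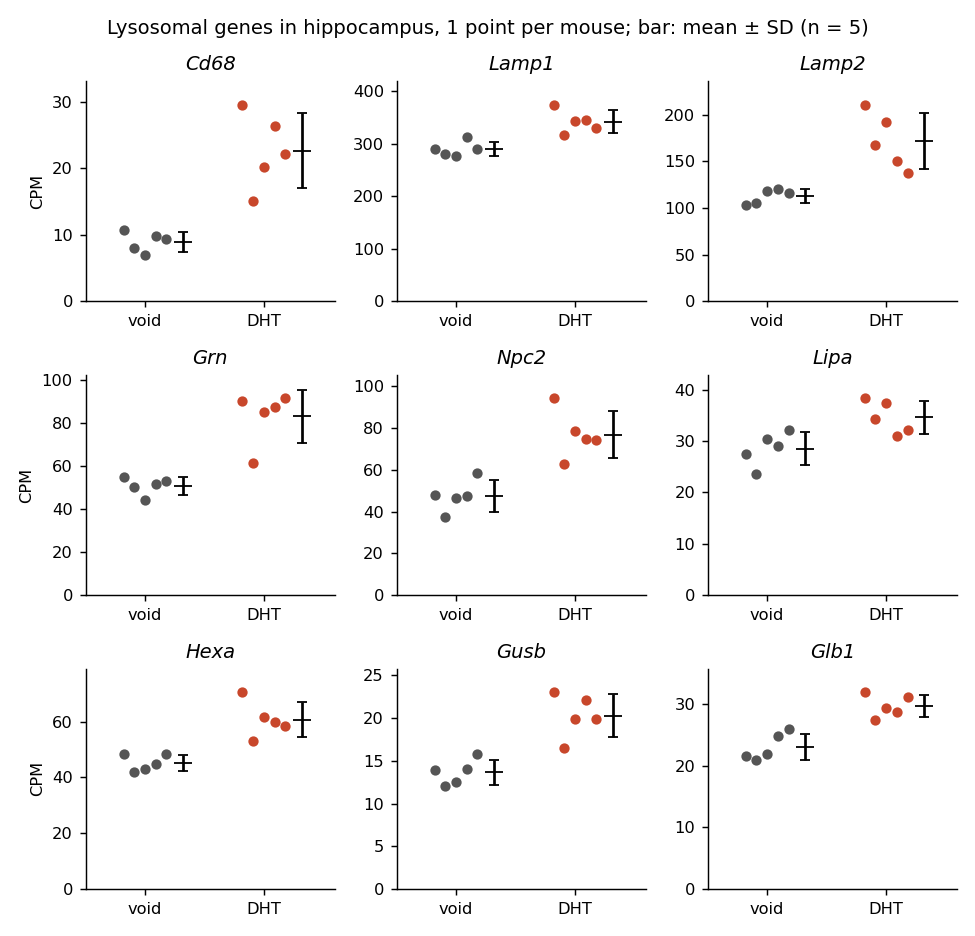
CPM of each of the 9 genes in every mouse, void in grey and DHT in red, with the mean and SD of each group (n = 5); each panel starts at 0. Cd68 separates most, Lamp1 and Npc2 separate by a narrow gap, and Lipa overlaps.

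Whether members of a role changed unequally was tested within mice, by the difference of log2 CPM of a pair of genes compared between groups with an exact permutation test, adjusted over 9 pairs. Cd68 rose more than Lamp1, by 1.07 on the log2 scale, and more than Lamp2, by 0.72, while the change of Lamp1 minus that of Lamp2 was -0.36 (adjusted exact p = 0.0357 for each). Npc2 rose more than Lipa, by 0.42 (adjusted exact p = 0.0357). Grn and Npc2 differed by 0.01 (exact p = 0.976), and the remaining pairs, Grn and Lipa, Hexa and Gusb, Hexa and Glb1, and Gusb and Glb1, did not pass (adjusted exact p 0.0595 to 0.527). In all, 4 of 9 pairs passed. With 1 mouse left out the smallest exact p is 0.0159, and 0 pairs passed without void replicate 5, 9 or 11 or DHT replicate 1, 3 or 5, and 7 without DHT replicate 2.

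The increase stood beside a higher level of microglial transcripts. In bulk tissue, more cells of a type and more RNA per cell cannot be told apart. The summed CPM of 16 microglial genes was 465 to 561 with void and 641 to 971 with DHT, so the groups did not overlap, and 7 of the 16 were called higher. None of the 16 was at 0 throughout. P2ry12, the purinergic receptor that marks homeostatic microglia, was at 53.4 to 62.4 CPM with void and at 54.0 to 79.0 CPM with DHT (log2 fold change 0.16, edgeR adjusted p = 0.479), the smallest change of the 10 homeostatic genes used for scaling in a further fit. Of these 10, Cx3cr1 (0.54, edgeR adjusted p = 0.0251), Csf1r (0.55, edgeR adjusted p = 0.00965) and Gpr34 (0.57, edgeR adjusted p = 0.0335) were called higher. Trem2 rose from 8.24 to 20.5 CPM (log2 fold change 1.32, edgeR adjusted p = 0.00761) and Tyrobp, its adaptor, from 8.396 to 20.8 CPM (1.31, edgeR adjusted p = 0.00670), beside 1.34 for Cd68. Of 13 genes of disease-associated microglia, 9 were called higher. Markers of border macrophages (0 of 7 tested), monocytes and neutrophils (0 of 2 tested), neurons (0 of 12), oligodendrocytes (0 of 9) and endothelium (0 of 9) were not called by edgeR, and 1 of 10 astrocyte markers was. It was Gfap, the intermediate filament of astrocytes, at 335 to 559 CPM with void and 644 to 1349 CPM with DHT (log2 fold change 1.18, edgeR adjusted p = 0.00761). At an unadjusted p under 0.05, 1 of 7 border macrophage, 4 of 9 oligodendrocyte and 5 of 10 astrocyte markers were higher. So were 0 of the monocyte and neutrophil, neuron and endothelial markers, beside 2316 of all 17622 genes. The border macrophage count is near that share, and nothing is read from it.

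When all genes were scaled on 10 homeostatic microglial genes instead of by TMM, the median of all genes moved to -0.39, and 54.2% of genes were called lower and 3.27% higher. Against this reference, 2 of the 9 genes were called higher, Cd68 (log2 fold change 0.92, 95% interval 0.60 to 1.24, edgeR adjusted p = 0.00639) and Grn (0.31, 0.07 to 0.56, edgeR adjusted p = 0.0321), and none was called lower. Npc2 was at 0.28 (edgeR adjusted p = 0.0636), Lamp2 at 0.19 (edgeR adjusted p = 0.145) and Gusb at 0.16 (edgeR adjusted p = 0.259). The other 4 lay between -0.16 for Lamp1 and 0.02 for Hexa. The median over the 9 genes was 0.16, against -0.39 for all genes. With the 16 microglial genes as the reference, 1 of the 9 was called higher and 1 lower. With the 10 genes as the reference, 1 was called higher without void replicate 4, 5, 10 or 11 or DHT replicate 3, 5 or 6. The share over all genes is not given for these further fits, so nothing is read from their counts. The part of microglial content in the changes was not tested further.

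Markers of the choroid plexus, the secretory epithelium of the ventricles, moved with the groups too. The summed CPM of 12 choroid plexus genes was 364 to 3297 with void and 3965 to 5866 with DHT, 5 of the 12 were called higher, and Ttr, which encodes transthyretin, was at 62.5 to 1335 CPM with void and at 1289 to 1728 CPM with DHT (log2 fold change 1.63, edgeR adjusted p = 0.237). When the edgeR fit took the mean z-score of these 12 genes in each mouse as a covariate, 0 of the 9 genes and 0 genes in all were called after adjustment (adjusted p 0.596 to 0.991 for the 9 genes). The score was -1.63 to 0.410 with void and 0.585 to 1.03 with DHT, so the fit could separate score and treatment only in part. The SE of Cd68 was 0.32 with the score and 0.18 without it. At an unadjusted p under 0.05 in that fit, 6 of the 9 were higher, against 5.37% of all genes. Cd68 had about the same value (log2 fold change 1.33, unadjusted p = 0.00142), as did Grn (0.72, unadjusted p = 0.00216) and Lamp1 (0.26, unadjusted p = 0.0259). Npc2 was at 0.36 (unadjusted p = 0.0505) in place of 0.70, and Lipa at 0.04 (unadjusted p = 0.777) in place of 0.28. Lamp2, Hexa and Gusb stood at 0.50, 0.31 and 0.41, and Glb1 at 0.26 (unadjusted p = 0.0585). Void replicate 9, with the most choroid plexus transcript of the void group (3297), had the highest void value of Npc2 (58.3), Lipa (32.1), Hexa (48.4), Gusb (15.8) and Glb1 (26.0 CPM), and not of Cd68 (9.40), Lamp1 (290), Lamp2 (117) or Grn (53.0 CPM). This is 1 library, and for Hexa void replicate 10 (sum 937) was almost level with it, at 48.3 CPM. Void replicate 4, with the next highest sum (1733), was below void replicates 5 (sum 392) and 10 (sum 937) for Npc2 (46.3), Hexa (43.0) and Gusb (12.5 CPM). For Glb1 (21.97 CPM) it was below void replicates 5 and 9, and for Lipa (30.4 CPM) below void replicate 9 alone. The part of choroid plexus content in the changes was not tested beyond this fit.

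**Figure D3:**
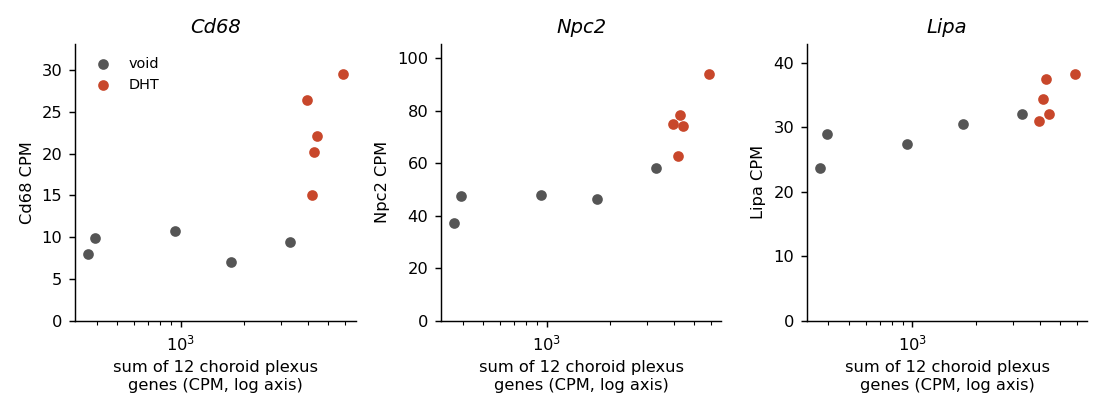
CPM of Cd68, Npc2 and Lipa in each mouse against the summed CPM of 12 choroid plexus genes (log axis), void in grey and DHT in red. Cd68 is at 6.98 to 10.7 CPM in the void group. Npc2 and Lipa, like Hexa, Gusb and Glb1 (not plotted), are highest among void-treated mice in the 1 mouse with the highest sum. For Hexa void replicate 10 is almost level with that mouse (48.3 and 48.4 CPM). The void-treated mouse with the next highest sum (1733) is at 46.3 CPM for Npc2, below void replicates 5 and 10, and at 30.4 CPM for Lipa.

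**Figure D4:**
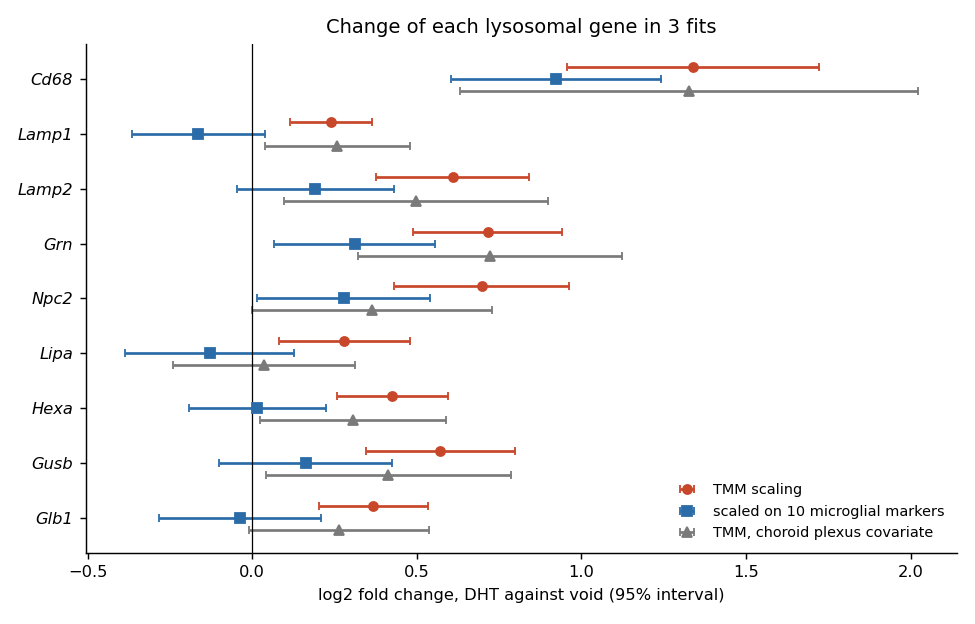
Log2 fold change (DHT against void) of each gene with its 95% interval in 3 edgeR fits: TMM scaling, scaling on 10 microglial genes, and TMM with the score of the choroid plexus genes added. The 95% intervals of Cd68 and Grn lie above 0 in all 3 fits, and those of the other genes do not.

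Around the 9 genes, 113 other lysosomal genes were listed by role and 109 were tested. Of these, 27 were called higher and 0 lower (5.22% and 0.261% of all genes), with a median log2 fold change of 0.13. Scaled on the microglial genes, 10 of the 109 were higher and 48 lower, beside 3.27% of all genes higher and 54.2% lower, and their median was -0.28 beside -0.39 for all genes. Without void replicate 11, 14 were called higher, and without DHT replicate 1, 16. These 2 fits called 351 of 17858 and 395 of 17731 genes higher in all, in place of 920 of 17622. Genes with the lowest p in each list are named. The proteases had the highest share, 10 of 14 with a median of 0.47, with Ctss, cathepsin S, an endopeptidase of antigen-presenting cells (log2 fold change 1.23, edgeR adjusted p = 0.00670), and Ctsh, an aminopeptidase (1.04, edgeR adjusted p = 0.00670). Among the other glycosidases 5 of 15 were higher, with Man2b1, an alpha-mannosidase, at 0.69 (edgeR adjusted p = 0.00761). Of the membrane proteins 6 of 26 were higher, with Slc11a1, a metal transporter of phagosomes (1.51, edgeR adjusted p = 0.00670), and Cd63, a tetraspanin (0.84, edgeR adjusted p = 0.00671). Of the sulfatases 2 of 8 were higher, with Arsg at 0.68 (edgeR adjusted p = 0.0238), and of the lipid-handling genes 2 of 11, Naaa (0.37, edgeR adjusted p = 0.0104) and Gm2a, the GM2 activator (0.42, edgeR adjusted p = 0.0236). Npc1, the membrane partner of Npc2, was at 0.11 (edgeR adjusted p = 0.560), and Psap, the precursor of the saposins, at 0.21 (edgeR adjusted p = 0.164).

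The counts of acidification and delivery genes called higher were near what the share over all genes (5.22%) gives, and nothing is read from them. Of 19 V-ATPase subunits, which pump protons into the lysosome, 1 was higher, Atp6v0e (log2 fold change 0.55, edgeR adjusted p = 0.00761), and the median was 0.01. Of 12 delivery genes 0 were called by edgeR. At an unadjusted p under 0.05, 2 of the 12 were higher, beside 2316 of all 17622 genes. The lowest p belonged to M6pr, the cation-dependent mannose 6-phosphate receptor (0.12, edgeR adjusted p = 0.187). Sort1, the receptor that takes up progranulin, was at -0.06 (edgeR adjusted p = 0.637). Of 4 transcriptional regulators tested, Mitf was higher (0.70, edgeR adjusted p = 0.0176) and Tfeb was at 0.49 (edgeR adjusted p = 0.105).

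**Figure D5:**
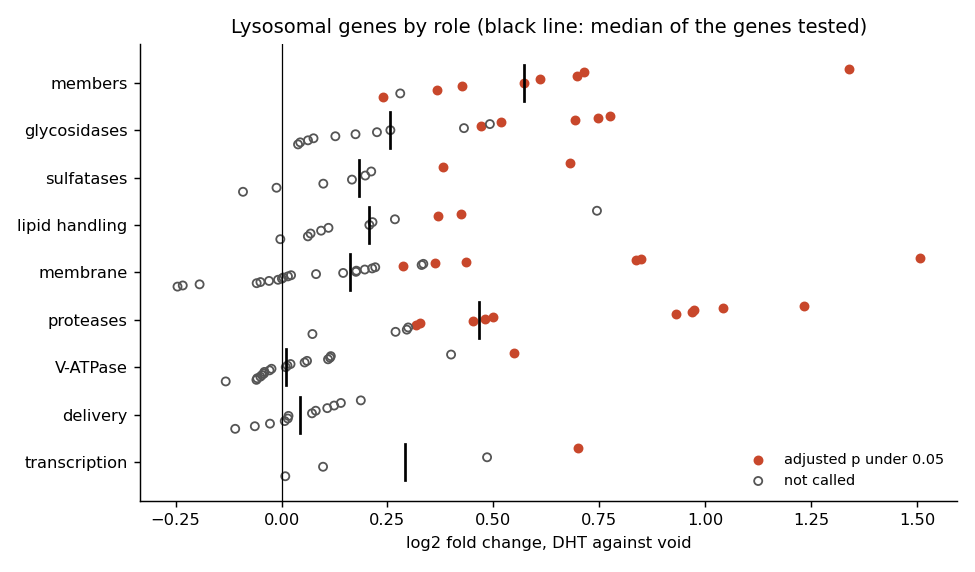
Log2 fold change (DHT against void) of every tested gene of the 9 members and of 8 other lysosomal lists; filled points passed an adjusted p under 0.05 and the black line is the median of each list. Medians run from 0.01 for the V-ATPase to 0.47 for the proteases, and 0.57 for the 9 genes.

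Likeness to the 9 genes was measured across the 10 mice by Pearson's r of log2 CPM after the mean of each group was subtracted. The points share each mouse's library. Partners named are those with the highest r among all tested genes, so their r values are the extremes of a wide search over 10 mice. Closest to Cd68 were Cyba (r = 0.964), Trem2 (0.961) and C1qc (0.953), to Grn Unc93b1 (0.967), Il4ra (0.961) and Fermt3 (0.959), and to Lamp1 Klhl6 (0.950), Gna13 (0.947) and Cd48 (0.942). Closest to Lamp2 were Acss3 (0.981), Pigp (0.979) and Acadl (0.976), and to Npc2 Tent5c (0.976), Slc22a5 (0.967) and Acacb (0.951). The glycosidase Hexa was closest to Ctsz (0.959), Tmem176a (0.946) and Slc14a1 (0.944), Gusb to Gm2a (0.973), 1700008J07Rik (0.950) and Exoc3l4 (0.948), and Glb1 to Ghdc (0.962), Eva1a (0.954) and Tax1bp3 (0.942). Among the 36 pairs of the 9 genes the median r was 0.613, from -0.08 for Lamp2 and Grn to 0.887 for Npc2 and Hexa, and 26 pairs were over 0.5.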

How the data were processed

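Bulk RNA-seq counts of 10 hippocampi were used. Per the labels and the methods, the authors trimmed reads with HTStream, aligned them with STAR 2.7.10b and deposited the resulting raw counts, which were not normalized. The methods name mm10 and the processing notes mm39 and GRCm39, so no coordinates of the count table are given. The counting tool, annotation release and handling of strand were not given in the sources used here. Without known strand, reads of overlapping genes cannot be told apart. Symbols (51948 of 56884 rows) and exon lengths came from GENCODE M21, and promoters from RefSeq GRCm38.p6.

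Groups followed the labels. For the count test, edgeR 4.0.16 in R 4.3.3 was used with its expression filter by group, TMM scaling, quasi-likelihood F tests and p-values adjusted by Benjamini and Hochberg over 17622 genes. CPM were scaled by TMM. Exact tests used log2 CPM with a prior count of 2. DESeq2 1.42.0 was an alternative. The script was tested on simulated counts. P-values set the difference between groups against the spread between mice, and the number of mice limits precision. The 9 genes and all lists were chosen with earlier results of these data known. Named were the 9 genes, in each other lysosomal list the 2 called genes with the lowest p in each direction (or the 1 with the lowest p where none was called), the 3 closest genes to each called member, and Ttr, P2ry12, Trem2 and Tyrobp. Some genes that this rule selects are not reported here. Npc1, Psap, Sort1 and Tfeb were added for their known roles, and Gfap, Cx3cr1, Csf1r and Gpr34 as the called genes of their lists, after their values were seen.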

Additional observations from a re-analysis of the deposited data

Results flagged for a closer look

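Grn in DHT replicate 2, at 61.6 CPM, stood apart from the other DHT-treated females, which were at 85.0 to 91.4 CPM. The gap to the nearest mouse was 0.784 of the range of the group, above Dixon's critical value of 0.71 for 5 samples. Of 18 groups examined (9 genes in 2 treatments) this was the only one, and chance flags about 1 in 20. DHT replicate 2 was also the lowest DHT-treated mouse for Cd68, Lamp1, Npc2, Hexa, Gusb and Glb1, and had the lowest microglial sum of the DHT group (641 CPM).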

How the results depend on the processing

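With the choroid plexus genes' score added to the fit, 0 of the 9 genes and 0 of the other lysosomal genes were called higher, as were 0 of all genes tested. The score did not overlap between the groups, so this fit could separate it from treatment only in part. With the score added relative to the microglial genes, 0 of the 9 were called higher. With DESeq2, other size factors or other filters, 7 to 8 of the 9 and 26 to 30 of the other lysosomal genes were called higher, and none was called lower. Over all genes, DESeq2 called 1220 of 35297 higher, and edgeR with DESeq2's size factors 834 of 17622. Library size alone gave 966 of 17622, the filter of at least 1 count 950 of 35326, and that of at least 10 counts in every library 830 of 15973. Leaving out 1 mouse gave 5 to 8 of the 9, 14 to 31 of the other lysosomal genes, and 0 to 7 unequal pairs (0 without void replicate 11, 5 or 9 or DHT replicate 1, 3 or 5). Genes called higher in all then ranged from 351 to 1072, in place of 920. Relative to the microglial genes, leaving out 1 mouse gave 1 to 3 of the 9 higher and 0 lower. A filter of at least 1 count in all libraries together gave 1 higher, and scaling on all 16 microglial genes gave 1 higher and 1 lower. Shares over all genes are not given for these alternatives relative to the microglial genes, so nothing is read from their counts. With all 10 mice and the 10 microglial genes, 3.27% of all genes were called higher and 54.2% lower. The Lamp1 log2 fold change was 0.21 with DESeq2's size factors and 0.23 with the filter of at least 1 count (edgeR adjusted p = 0.0608 and 0.0819), and 0.17 to 0.27 with 1 mouse left out. The difference between Grn and Npc2 changed sign in 4 of the 10 fits without 1 mouse, over a range of -0.0564 to 0.0874, being -0.0404 without void replicate 4, -0.0564 without void replicate 9, -0.0233 without DHT replicate 5 and -0.0416 without DHT replicate 6. Of 261 values of single genes and pairs under alternatives, 204 kept their direction and side of the threshold, 48 lost the threshold, 5 gained it and 4 changed sign. The cause was not tested, except that with 4 mice against 5 the smallest exact p is 0.0159. Counts of 5 mice a group limit which smaller changes could be called. No paired analysis was possible because number 5 alone occurs in both groups.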
